A study of Drosophila melanogaster with 5 samples.

Results

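The mir-310 cluster is a row of young microRNA hairpins on chromosome 2R of Drosophila melanogaster, and mir-92a and mir-92b on chromosome 3R are conserved relatives of 4 of them. The members were taken by name from the table of counts: mir-310, mir-311, mir-312, mir-313, mir-2498, mir-991 and mir-992 as the young cluster, and mir-92a and mir-92b as the conserved genes. They gave 18 mature arms of 9 hairpins, out of 479 arms of 259 hairpins. Small RNAs of 18 to 29 nt had been sequenced from 3 libraries of dissected intestine and 2 libraries of the carcass that was left. All came from w1118 males, a white-eyed laboratory strain described as wild type, 2 to 3 days old and reared on standard food, with no treatment. The design asked which microRNAs differ in read count between these tissues. The labels do not say how many flies were pooled or whether replicates came from separate flies, so each p-value is set against the scatter of these libraries alone, and that scatter may be technical.

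A microRNA hairpin is cut from its transcript and diced into a short duplex with a 5p and a 3p arm, one of which is usually kept in an Argonaute protein while the other is degraded. The kept arm pairs with messenger RNAs mainly through its seed, bases 2 to 8. The miR-92 family is found across bilaterian animals, and in the fly miR-92a and miR-92b are known from neural stem cells, miR-92b also from muscle, where it restrains the transcription factor Mef2, and miR-92a from the leg, where it represses shavenoid in the formation of hairs. The 3p arms of mir-310 to mir-313 share the miR-92 seed, and the genes are known as products of duplication in the Drosophila lineage. They are known from the male germline, from the ovary, where they act on Hedgehog signalling, and from the larval neuromuscular junction. mir-991 and mir-992 are known as microRNAs of the testis, and mir-2498 is little studied.

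In the BDGP6.54 annotation the 7 young hairpins lay within 1654 bases of the minus strand of chromosome 2R, from 20583752 to 20585405. The cluster was in no annotated protein-coding gene and lay between qsm, 160 bases away, and Nnf1a, 816 bases away, both on the same strand. mir-92a (FBgn0262411) occupied 25646506 to 25646600 on the plus strand of chromosome 3R, in an intron of jigr1, a putative DNA-binding protein. mir-92b (FBgn0262388) occupied 25651398 to 25651497, 4797 bases further on, also within jigr1 on the same strand. There it overlapped the noncoding RNA gene lncRNA:CR45917 and the extended 3′ untranslated region of 1 annotated jigr1 transcript.

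The libraries held between 329424 and 547937 microRNA reads in the intestine, against 1654625 and 3038873 in the carcass, so the young members were measured more closely in the carcass. One read was worth 1.83, 2.71 and 3.04 CPM (counts scaled to the microRNA total of the library) in the intestine, against 0.604 and 0.329 CPM in the carcass. Intestine 1 stood apart from the other intestine libraries: the chi-square per degree of freedom was 49.1 and 52.4 between it and intestine 2 and 3, against 10.9 between those. Between carcass 1 and carcass 2 it was 179. This measure grows with read depth, so it cannot rank the deeper carcass pair against the intestine pairs. miR-958, which marked the intestine, summed to 195659 ± 4407 CPM in that tissue (SD, n = 3), against 822 ± 93.2 CPM for the carcass (SD, n = 2). All 38 arms of a list of testis microRNAs had reads in the carcass.

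The young cluster and the conserved genes differed sharply in how they were divided between the tissues. Summed over its 14 arms on library totals, the young cluster measured 38.3, 38.0 and 33.4 CPM in intestine 1, 2 and 3, and 1515 and 1256 CPM in carcass 1 and 2. The tissues were far apart, with means of 36.6 ± 2.76 CPM (SD, n = 3) and 1386 ± 183 CPM (SD, n = 2), 37.9-fold higher in the carcass. The 4 conserved arms summed to 387, 353 and 376 CPM in the intestine, against 334 and 432 CPM in the carcass, and here the tissues overlapped. Their means were 372 ± 17.4 and 383 ± 69.0 CPM. This overlap depended on the scaling: with TMM factors, explained with the single arms, the conserved sums were 445, 399 and 448 CPM in intestine 1, 2 and 3, and 262 and 356 CPM in carcass 1 and 2, without overlap and higher in the intestine. The intestine level was therefore 2.64 ± 0.20% of the mean carcass level for the young cluster and 97.2 ± 4.54% for the conserved genes (SD over the 3 intestine libraries). With TMM factors these became 3.80 ± 0.20% and 139 ± 8.76%. In the intestine the conserved arms held 10.1, 9.29 and 11.3 reads for each read of the young cluster, whereas in the carcass the young cluster held 4.53 and 2.91 reads for each conserved read. This ratio is taken within a library and does not depend on the scaling between libraries. In bulk tissue, fewer cells of a type and less RNA per cell cannot be told apart.

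**Figure D1:**
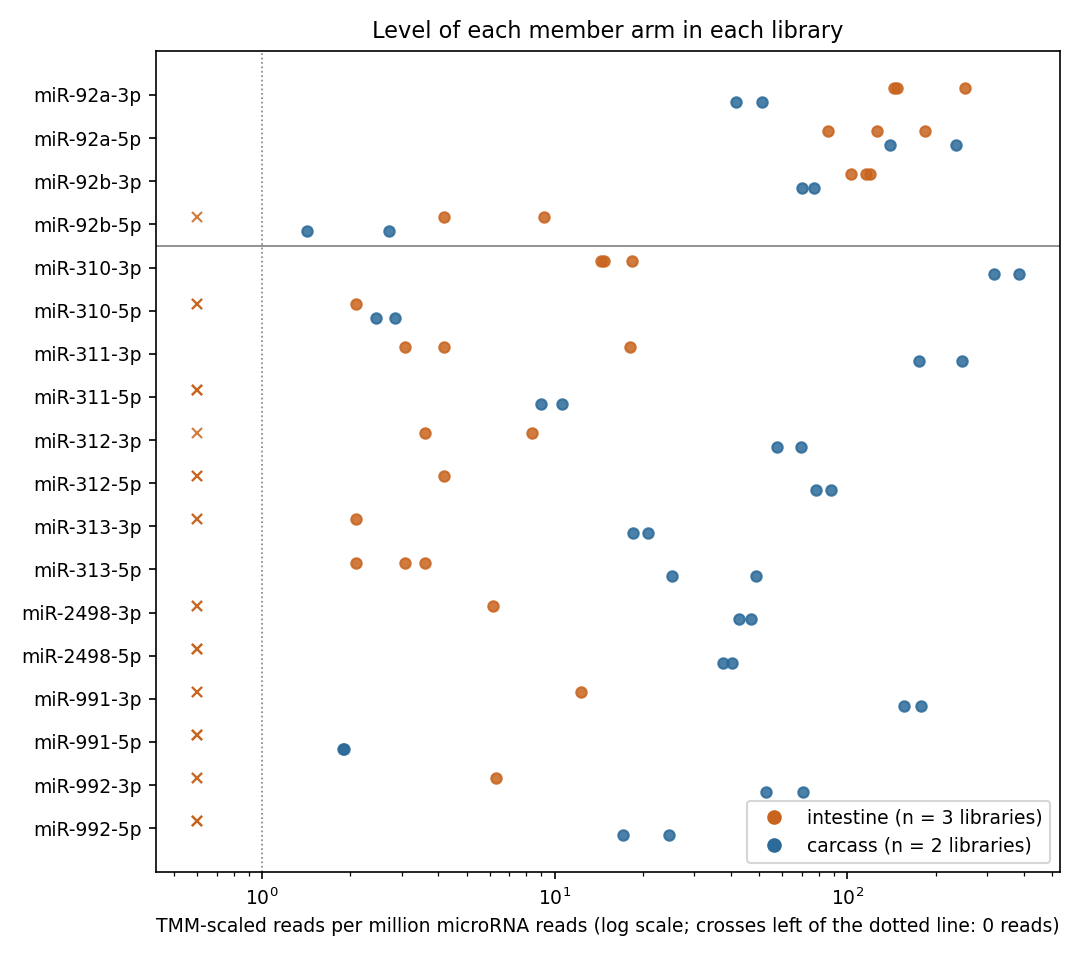
Level of each of the 18 arms in each library, in TMM-scaled CPM on a log axis, with the conserved arms above the line and the young cluster below it. Points are single libraries of intestine (3) and carcass (2), and crosses mark libraries with 0 reads. miR-92a-3p lies higher in the intestine (144 to 252 CPM) than in the carcass (41.5 and 51.2 CPM), while miR-310-3p lies at 14.4 to 18.4 CPM in the intestine and at 316 and 385 CPM in the carcass.

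Single arms are given in CPM scaled with trimmed mean of M-values (TMM) factors, which set libraries on a common level through the bulk of their microRNAs. Of the conserved arms, miR-92a-3p, which carries the seed, was the arm with the larger difference and was higher in the intestine. It measured 252, 144 and 148 TMM-scaled CPM in the intestine, against 51.2 and 41.5 in the carcass, so every intestine library lay above both carcass libraries. The log2 fold change, intestine over carcass, was 2.00 (SE 0.28, adjusted p = 5.48e-08, edgeR quasi-likelihood test with Benjamini-Hochberg adjustment over 222 arms), a 4.01-fold difference. Intestine 1 was the highest of the 3, and without it the log2 fold change was 1.42 (edgeR adjusted p = 8.91e-05, with 7.58e-10 to 0.000141 over 12 alternatives). In the same test 34.7% of all 222 arms were called higher in the intestine with a threshold of 0.05 on the adjusted p, and 48.2% were called lower.

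The opposite arm of the same hairpin, miR-92a-5p, had a log2 fold change of the other sign. It measured 86.0, 126 and 184 TMM-scaled CPM in the intestine, against 139 and 235 in the carcass, and the tissues overlapped. The fitted log2 difference was -0.55 (SE 0.28, edgeR adjusted p = 0.0713), which missed the threshold. With RLE factors and with library totals the value was further below 0, at -0.90 (edgeR adjusted p = 0.000993) and -1.06 (edgeR adjusted p = 0.000112), and both passed. With upper-quartile factors the arm was not called. Without carcass 2, which held the highest value, the log2 difference was -0.13.

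miR-92b-3p, the seed-bearing arm of mir-92b, differed less between the tissues than miR-92a-3p, and its call did not last. It measured 103, 120 and 116 TMM-scaled CPM in the intestine, against 70.1 and 77.1 in the carcass, and the tissues did not overlap on this scale. The log2 fold change of 0.60 (SE 0.26, edgeR adjusted p = 0.0291) passed the threshold, but the call was lost in each of 12 alternatives, with adjusted p between 0.0602 and 0.780. On library totals the same arm measured 89.4, 106 and 97.1 CPM in the intestine, against 89.4 and 93.5 CPM in the carcass. miR-92b-5p, the rare arm, had 5 intestine and 13 carcass reads and was too low to be tested.

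The young cluster was nearly unread in the intestine. Its 14 arms had 46 reads there in all, against 6325 in the carcass. Of the arms, 4 went unread there, 6 had 1 to 3 reads and 4 had more. Of the 14 arms, 11 passed the filter on low counts, and all 11 did so through the carcass libraries alone. At their intestine levels, only a higher carcass level could bring them into the test. Neither their number nor their p-values in that test are evidence about the cluster, and the p-values are given as descriptions. Values from a fit without the filter, which all 14 arms entered, stand beside them for some of the arms. The values follow arm by arm. Ratios are of pooled TMM-scaled reads, and their intervals cover counting error only, because the reads carry no molecular identifiers.

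Of the young arms with the miR-92 seed, miR-310-3p was the most abundant. It had 7, 6 and 4 reads in the intestine, against 812 and 1165 in the carcass, or 14.7, 18.4 and 14.4 against 385 and 316 TMM-scaled CPM. It was the only young 3p arm with more than 3 reads in each intestine library. On the log2 scale the fold change was -4.46 (SE 0.33, by edgeR adjusted p = 1.25e-14), a 22.1-fold difference. Without the filter it was -4.86 (edgeR adjusted p = 5.47e-33), and over the 12 alternatives the value ran from -4.99 to -4.30, with adjusted p from 1.38e-39 to 2.30e-07.

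miR-311-3p had 2, 1 and 5 reads in the intestine, against 522 and 645 in the carcass. That is 4.19, 3.07 and 18.1 against 247 and 175 TMM-scaled CPM, with intestine 3 above the other intestine libraries. edgeR gave a log2 fold change of -4.80 (SE 0.41, adjusted p = 8.16e-13), and -6.04 without intestine 3. miR-312-3p had 4, 0 and 1 intestine reads and 147 and 212 carcass reads, a log2 fold change of -3.76 (SE 0.54, edgeR adjusted p = 1.30e-07), and -5.42 without intestine 1. Without the filter miR-311-3p had -5.19 (edgeR adjusted p = 1.24e-28) and miR-312-3p -4.15 (edgeR adjusted p = 6.70e-14). miR-313-3p, the least abundant of the 4, had 1, 0 and 0 reads against 44 and 68. It was 20.9-fold higher in the carcass, with a 95% counting interval of 3.67 to 831.

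The 5p arms of these hairpins do not carry the miR-92 seed. miR-312-5p had 2, 0 and 0 intestine reads and 185 and 288 carcass reads, a 44.0-fold ratio (12.1 to 365). miR-313-5p had 1 read in each intestine library and 53 and 180 in the carcass, 14.5-fold higher there (4.89 to 70.6). Its carcass libraries differed between themselves, at 25.1 and 48.9 TMM-scaled CPM. miR-311-5p, untested, had no intestine read and 19 and 39 carcass reads, at least 3.60-fold higher in the carcass, a bound set by 3 reads summed over the intestine libraries. miR-310-5p was rare in both tissues, with 1 intestine and 15 carcass reads, and its counting interval, 0.430 to 118, spanned 1. It entered the fit without the filter and was not called there (edgeR adjusted p = 0.346).

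The neighbours without the miR-92 seed were read from 1 intestine library each. miR-991-3p, the fourth most abundant member arm of the carcass, had 0, 4 and 0 reads in the intestine, against 377 and 573 in the carcass. The edgeR log2 fold change was -5.45 (SE 0.50, adjusted p = 3.98e-12), and the pooled ratio was 44.2-fold (17.2 to 163). Without the filter the value was -5.84 (edgeR adjusted p = 7.51e-28). Since intestine 2 held all 4 reads, the arm was at 0 in the intestine without it. miR-992-3p had 3, 0 and 0 reads against 111 and 259, a 23.0-fold ratio (7.80 to 112). miR-2498-3p had 0, 2 and 0 reads against 90 and 172, a 24.4-fold ratio (6.69 to 203). The 5p arms of the 3 hairpins had no intestine read. miR-2498-5p, with 223 carcass reads, was at least 13.8-fold higher in the carcass, and miR-992-5p, with 115, at least 7.14-fold. miR-991-5p had 11 carcass reads, too few for a bound above 1, and was not called in the fit without the filter (edgeR adjusted p = 0.166).

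**Figure D2:**
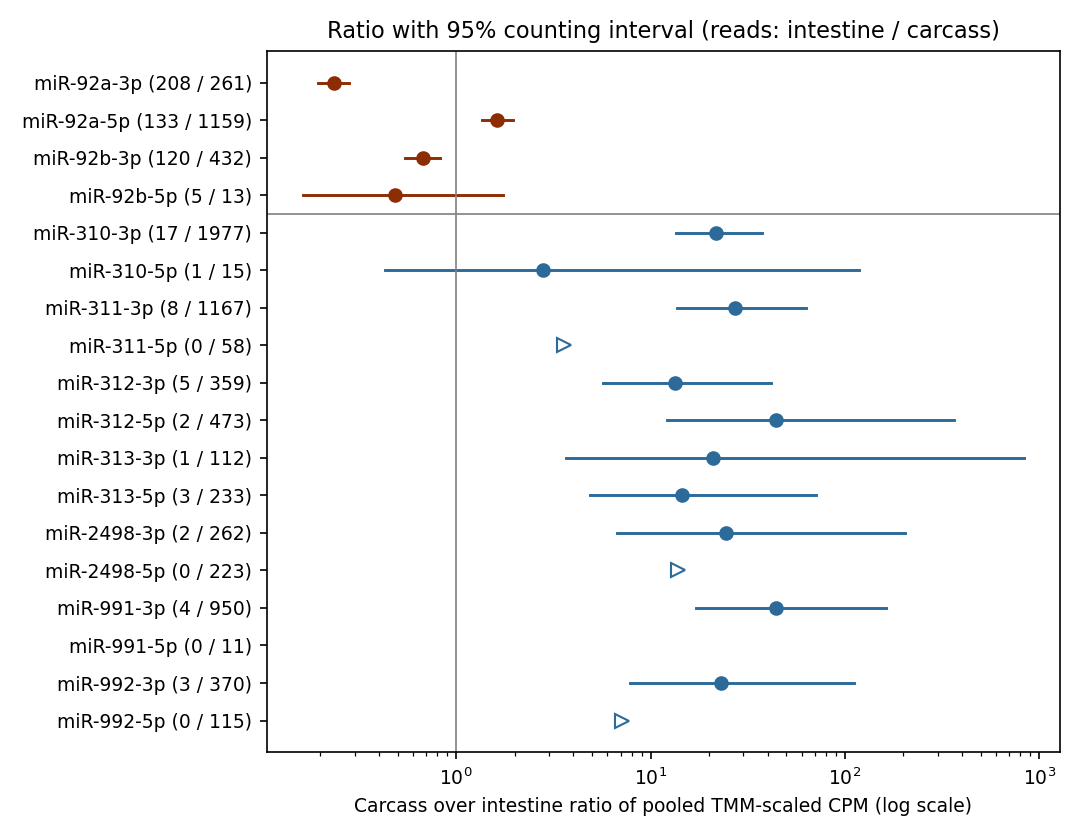
Ratio of carcass to intestine for each arm from pooled TMM-scaled reads, on a log axis, with 95% counting intervals. Triangles are bounds set by 3 intestine reads for arms with 0 intestine reads, and miR-991-5p is not drawn. The intervals of miR-92a-3p (0.194 to 0.282) and miR-92b-3p (0.547 to 0.828) lie below 1, and those of the young 3p arms with the miR-92 seed lie above it. The intervals do not include the spread between libraries.

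The intervals of the young arms overlapped widely. miR-312-3p had the lowest ratio of the seed-bearing arms at 13.4-fold (5.68 to 41.4) and miR-311-3p the highest at 27.2-fold (13.7 to 63.1), and these were not distinguishable at this depth. On library totals mir-310, mir-311, mir-312 and mir-313 together stood at 3.03 ± 0.68% of the carcass level in the intestine, and mir-2498, mir-991 and mir-992 at 1.74 ± 1.99% (SD, n = 3 for both). The second value rests on 9 intestine reads, with none in intestine 3, so the difference lay within the spread between libraries.

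To contrast young and conserved members directly, all arms were tested again with the miR-92a-3p count of each library as its size, which asks whether an arm changed relative to miR-92a-3p. The young arms entered this fit through the same filter, so their p-values are descriptions here too. miR-310-3p had a log2 fold change of -6.42 (SE 0.58, edgeR adjusted p = 2.46e-25), miR-311-3p of -6.72 (SE 0.61, edgeR adjusted p = 6.06e-25) and miR-312-3p of -5.80 (SE 0.67, edgeR adjusted p = 1.48e-16). Without intestine 3 the value of miR-311-3p was -7.88, and without intestine 1 that of miR-312-3p was -6.74. In a fit without the filter, added after seeing the data, miR-310-3p had -6.42 (edgeR adjusted p = 2.36e-24), miR-311-3p -6.72 (2.41e-24) and miR-312-3p -5.80 (6.39e-19). miR-92a-3p was itself higher in the intestine, so 74.7% of the 221 arms tested were called lower in this comparison and 5.88% higher, and the median over them was -2.40. With miR-92b-3p as the reference, miR-310-3p had -5.07 (edgeR adjusted p = 2.99e-37). The conserved arms also parted from each other. miR-92b-3p was lower relative to miR-92a-3p (-1.30, SE 0.44, edgeR adjusted p = 0.00501), a call that was lost without carcass 2 (edgeR adjusted p = 0.102, the highest of 8 alternatives, which began at 8.71e-05).

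The 6 genes that share the seed contributed very differently to it in the tissues. In the intestine miR-92a-3p and miR-92b-3p together made up 92.4, 92.5 and 88.0% of the 3p reads of the family. In the carcass they made up 14.4 and 17.3%, so the ranges were far apart. miR-92a-3p alone held 55.2 ± 9.03% of the intestine reads (SD, n = 3) but 6.06 ± 0.0066% of the carcass reads (SD, n = 2), and miR-92b-3p held 35.8 ± 7.96% and 9.77 ± 2.07%. miR-310-3p was the leading member of the carcass with 45.6 and 46.1%, followed by miR-311-3p with 29.3 and 25.5%. In the intestine miR-310-3p held 5.03 ± 1.33% and miR-311-3p 2.73 ± 2.85%. The order among the young arms in the carcass, miR-310-3p above miR-311-3p, miR-312-3p and miR-313-3p, was the same in both libraries. These shares rest on 359 intestine and 4308 carcass reads.

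**Figure D3:**
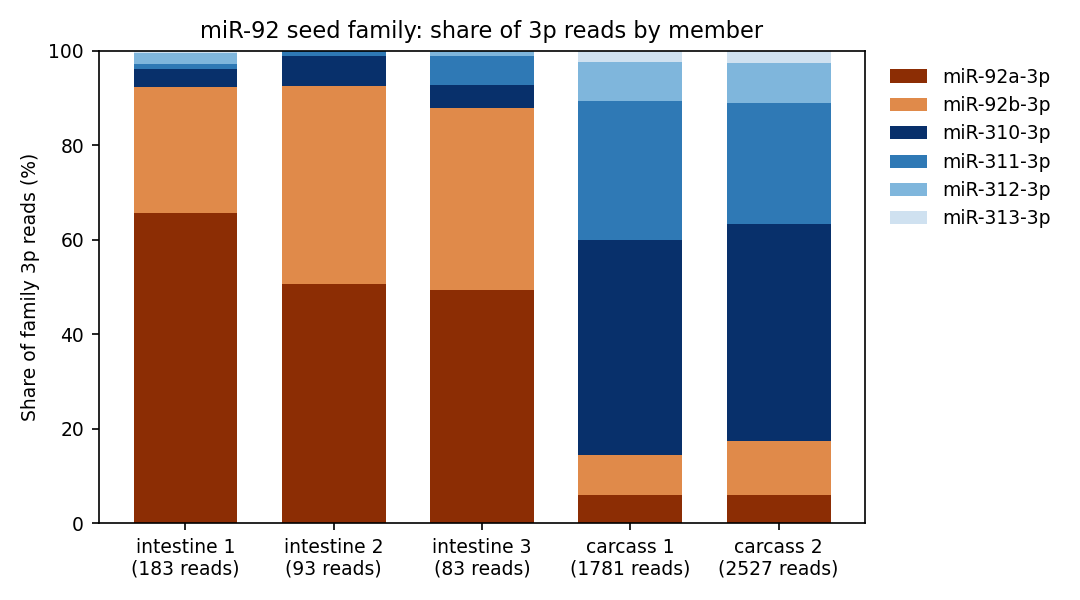
Share of the 3p reads of the miR-92 seed family held by each member, in percent, in each library, with the number of reads under each bar. The conserved arms (brown and orange) fill 88.0 to 92.5% of the intestine bars and 14.4 and 17.3% of the carcass bars.

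The hairpins differed in which arm was read. In the carcass the 3p arm dominated in mir-310, mir-991, mir-92b and mir-311, whose 5p arms held 0.753, 1.14, 2.92 and 4.73% of the pooled reads. Both arms were common in mir-2498 (46.0% 5p) and mir-312 (56.9% 5p), and 5p reads were the majority in mir-313 (67.5%) and mir-92a (81.6%, exact 95% interval 79.5 to 83.6). Such intervals cover counting error only: the carcass libraries stood at 73.1 and 85.0% for mir-92a, both outside its interval, and at 54.6 and 72.6% for mir-313. mir-992 lay between, at 23.7%. So the arm without the seed was the more common one in mir-312, mir-313 and mir-92a in the carcass. Reads of different arms compare read counts of RNAs of 22 to 24 nt, and how well each sequence was ligated was not measured.

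The balance of the arms of mir-92a differed between the tissues. Its 5p share was 25.5, 46.6 and 55.4% in the intestine libraries and 73.1 and 85.0% in the carcass libraries, without overlap. In the fit relative to miR-92a-3p, miR-92a-5p was lower in the intestine by a log2 fold change of -2.40 (SE 0.46, edgeR adjusted p = 4.40e-07). This value was also the median over the 221 arms of that fit. Since 74.7% of those arms were called lower, the call does not set mir-92a apart. The call held in each of 9 alternatives, with values from -2.84 to -1.15. The weaker end came with miR-92b-3p as the reference, and the value was -1.78 without carcass 2. References that include miR-92b-3p do not compare the arms of mir-92a alone. Among 55 hairpins with both arms tested and at least 10 intestine reads on each, the difference between the arms' log2 fold changes, -2.55 for mir-92a, was the 3rd largest in size, against a median of 0.50. For mir-92b the intervals overlapped: 5 of its 125 reads in the intestine were 5p (exact 95% interval 1.31 to 9.09%), and 2.92% of 445 in the carcass (1.56 to 4.94%). For the young hairpins the intestine held at most 18 reads each, and no shift of arms could be detected at that depth.

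**Figure D4:**
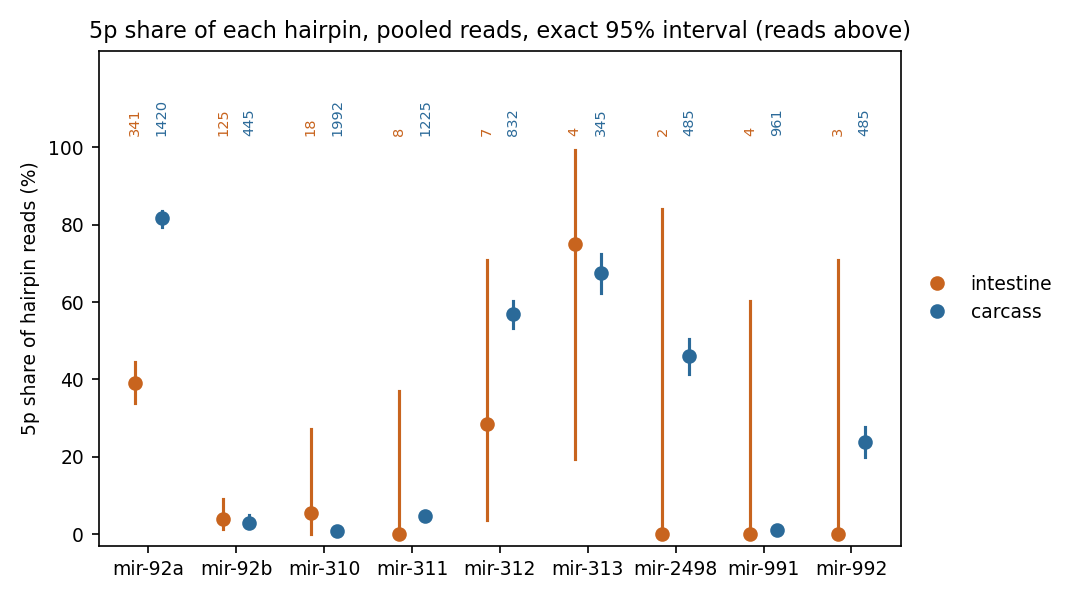
Share of the reads of each hairpin that came from the 5p arm, in percent, pooled over the intestine (orange) and carcass (blue) libraries, with exact 95% binomial intervals, which cover counting error only, and the number of reads above. mir-92a stands at 39.0% in the intestine and 81.6% in the carcass, while the intestine intervals of the young hairpins are wide.

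Along the cluster the carcass level was not even. Read in the direction of the minus strand, the hairpins ran mir-992, mir-991, mir-2498, mir-313, mir-312, mir-311 and mir-310. On library totals their carcass means, both arms summed, were 102 ± 5.27, 211 ± 27.9, 104 ± 2.65, 70.1 ± 16.3, 183 ± 25.5, 276 ± 72.0 and 440 ± 76.4 CPM (SD, n = 2). From mir-313 to mir-310 the level rose with each hairpin in both carcass libraries, whereas mir-991 lay above its neighbours on both sides. In the intestine mir-310 had 14.6, 16.3 and 12.1 CPM and the most reads of the young hairpins, 18 of 46. It was the highest of them in intestine 1 and 2, while in intestine 3 mir-311 lay above it at 15.2 CPM.

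**Figure D5:**
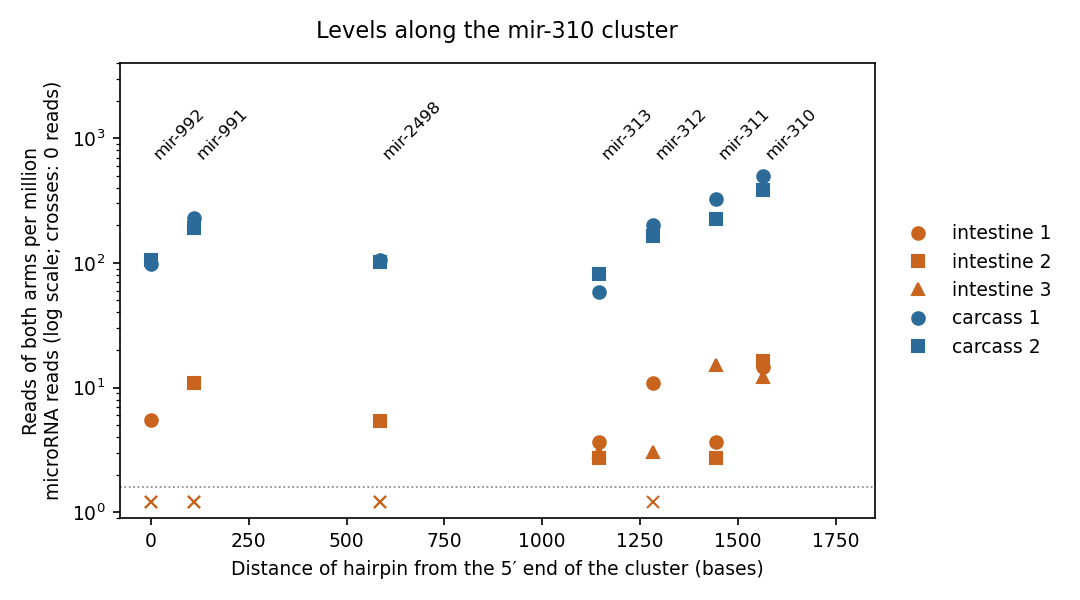
CPM of both arms of each young hairpin on library totals, on a log axis, against the distance of the hairpin from the 5′ end of the cluster, for each library. Carcass libraries (blue) climb from 58.6 and 81.6 CPM at mir-313 to 494 and 386 CPM at mir-310, and crosses mark intestine libraries with 0 reads.

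Among all 18 arms the order of TMM-scaled levels also differed between the tissues. In the intestine miR-92a-3p, miR-92a-5p and miR-92b-3p came first, with ranges that overlapped from each to the next, and miR-310-3p followed without overlap at 15.9 ± 2.24 CPM. The arms after it overlapped from each to the next. In the carcass miR-310-3p came first at 350 ± 48.3 CPM and did not overlap with miR-311-3p at 211 ± 51.0. miR-311-3p, miR-92a-5p (187 ± 67.6) and miR-991-3p (167 ± 16.3) were not separated, and miR-312-5p followed at 82.9 ± 6.68 CPM.

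Over the 5 libraries, the arms outside the members whose centred log2 levels lay nearest to those of miR-310-3p were miR-974-5p, miR-983-2-5p and miR-13a-3p, at Euclidean distances of 0.65, 0.68 and 0.71. miR-974-5p and miR-983-2-5p belong to testis clusters of the X chromosome. Each had 1 read in every intestine library, so their likeness to miR-310-3p within the intestine rests on few reads. miR-13a-3p, of the miR-2 family, measured 18.9, 21.5 and 18.1 TMM-scaled CPM in the intestine, against 612 and 669 in the carcass. Nearest to miR-92a-5p, the most abundant conserved arm by reads, were miR-276a-5p, miR-9a-3p and miR-190-5p, at 0.34, 0.45 and 0.52. The 5 libraries come from 2 tissues, so this likeness is mostly a likeness of the difference between them.

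Lists of markers of other tissues also stood lower in the intestine, where 48.2% of all 222 tested arms were called lower. The testis list, 38 arms of 19 hairpins, summed to 35.3 to 49.3 CPM in the intestine, against 3257 and 3376 CPM in the carcass on library totals, and stood in the intestine at 1.31 ± 0.22% of the carcass level (SD, n = 3), with 13 arms at 0 reads in the intestine. The list for neurons and eye, 8 arms, summed to 206 to 273 CPM and to 20324 and 29828 CPM, or 0.91 ± 0.15%, with 3 arms at 0. The muscle list, 4 arms with none at 0, stood at 23.7 ± 4.69%, but its hairpins differed. The sum was mostly miR-1-3p, at 147875 and 135222 CPM in the carcass. miR-133-3p was much lower in the intestine, with 51.1, 40.7 and 103 CPM against 4993 and 7675 CPM in the carcass. The young cluster, at 2.64 ± 0.20% with a range of 2.41 to 2.77%, lay above the testis list (1.06 to 1.49%) and the neuron list (0.82 to 1.09%) in every intestine library, and far below the conserved genes (92.2 to 101%). The testis list includes the mir-959 to mir-964 cluster of chromosome 2L, and whether the listed arms were read from testis alone was not tested. The part of any of these tissues in the level of the young cluster was not tested.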

How the data were processed

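The authors deposited whole-number read counts per mature microRNA arm, 1 column per library, not normalised. Per the submitters' processing notes, cutadapt 1.9.1, Bowtie2 2.3.2 and featureCounts (Subread 2.0.0) were used. The sources used here do not give their build, their strand setting or how reads matching several places were handled, so the division of reads between related arms is unknown. Of 479 rows, 473 matched BDGP6.54 by name, all members among them, and arms were assigned by position in the hairpin.

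The members, lists and tests were chosen with earlier results of these data known. The test was edgeR 4.0.16 under R 4.3.3 (filterByExpr with minimum count 10 and minimum total 15, TMM, quasi-likelihood, no replicate block, Benjamini-Hochberg threshold 0.05), which kept 222 arms. TMM gave factors of 0.87, 0.88 and 0.84 for intestine 1 to 3, and 1.28 and 1.21 for carcass 1 and 2. SE is the size of the log2 fold change divided by the root of F. Named beside the members were the 3 tested arms nearest in log2(CPM + 0.5) to the most abundant young and conserved arm. The test was also run on simulated counts, with changes in random directions and smaller than the largest seen here. That setting differs from these data, so the run lends the results no support. DESeq2 1.42.0 was an alternative. The smallest level that 3 reads over the pooled intestine libraries could show was 2.41 CPM.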

Additional observations from a re-analysis of the deposited data

How the results depend on the processing

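The young arms entered the filtered tests through the carcass alone, so their calls under these alternatives are no sign of stability; miR-992-5p gave no value without carcass replicate 1. Between 174 and 206 arms were called under the alternatives, against 184. The share of calls that were higher in the intestine, 41.8% of them with TMM, was 28.4% with library totals, 34.3% with RLE factors, 32.8% with DESeq2 and 29.6% without the filter. Over all tested arms the median was -0.50 on the log2 scale with TMM, -0.87 with RLE factors and -1.02 with library totals, so differences of the size seen for miR-92b-3p and miR-92a-5p depend on the scaling. miR-92b-3p lost its call with RLE factors (0.24), library totals (0.083), upper-quartile factors (0.52), DESeq2 (0.24), a mean of at least 10 CPM (0.35), no filter (0.20) and the replicate block (0.59), and without any 1 library (0.34 to 0.66). miR-92a-5p was called lower with RLE factors (-0.90), library totals (-1.06), DESeq2 (-0.88), a mean of at least 10 CPM (-0.79), no filter (-0.96) and the replicate block (-0.80). It was also called without intestine replicate 3 or carcass replicate 1, and over all left-out libraries it ran from -1.08 to -0.13. The cause was not tested. The replicate block changed no other call of a member. Replicate numbers are shared by libraries 1 and 2 of each tissue, and were not taken as pairs. Deviations of same-numbered libraries correlated with r of 0.04 and 0.03 across arms. With 2 carcass libraries the deviations of 1 mirror those of the other, so these values cannot decide whether the libraries were paired. With TMM factors, an alternative chosen after seeing the data, the sums were 42.3 CPM (intestine) and 1112 CPM (carcass) for the young cluster, and 431 and 309 CPM for the conserved genes. Counting reads without miR-958-3p in the totals raised the intestine sum to 45.3 CPM for the young cluster and 461 CPM for the conserved genes. With both arms counted, mir-92a and mir-92b held 28.6% of the family's carcass reads. Without the 1 intestine library that held all their reads, miR-312-5p, miR-313-3p, miR-991-3p, miR-992-3p and miR-2498-3p were at 0 there. Depth limits the young arms in the intestine, where 10 of 14 had at most 3 reads.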
